A study of Mus musculus with 63 samples.

Results

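Mouse extended pluripotent stem (EPS) cells carrying a control construct were compared after 6 days of F4H with the same kind of cells kept undifferentiated, by bulk RNA sequencing. The libraries were chosen by their labels and count tables, and no measured value entered the choice. They are 4 of the 22 libraries with RNA count tables, of a series with 63 samples that studies the zinc finger factor YY1. All cells were of C57BL/6 background. The day 6 group held 2 libraries of EPS cells after 6 days of F4H, titled as shCtrl and labelled as control. The undifferentiated group held 2 libraries of EPS cells that express a control short hairpin RNA (shCtrl). A second undifferentiated group held 3 libraries of EPS cells with no construct named (untransduced EPS). For a comparison of responses, 2 libraries of ES cells with a control overexpression construct (oeCtrl) after 6 days of F4H and 2 of undifferentiated oeCtrl ES cells were also used. Levels in 3 libraries of undifferentiated ES cells with no construct named (untransduced ES) are given for a few genes. Undifferentiated EPS cells were grown in serum-free LCDM medium and ES cells in serum-free 2i medium, both over Matrigel or over mitotically inactive fibroblasts of mouse embryos as feeders, so that feeder RNA can be present in any of these libraries.

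Several limits belong to the design. The names of the day 6 control tables give no construct while their titles say shCtrl, so both undifferentiated EPS groups are given as a baseline; these comparisons share the day 6 libraries. Day and submission coincide, the library kit is stated for the day 6 samples, and their effects cannot be told apart. The labels do not say whether replicates came from separate cultures, so the p-values rest on the spread between libraries alone, and this spread may be technical.

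EPS cells are a cultured state reported to contribute to embryonic and extraembryonic tissue. LCDM is named for LIF, CHIR99021, dimethindene maleate and minocycline. LIF sustains naive pluripotency through STAT3, and CHIR99021 inhibits GSK3 and so activates canonical Wnt signalling. The labels do not spell out F4H; in trophoblast stem cell culture the abbreviation stands for FGF4 with heparin, which together activate FGF receptors and the ERK cascade. In the embryo, FGF, Wnt, BMP and Nodal signals pattern the epiblast, Cdx2, Eomes and Gata3 mark trophoblast, T and Mesp1 mark nascent mesoderm, and Gata4, Gata6 and Sox17 mark primitive endoderm.

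Each of the 4 libraries held between 15874133 and 19878763 reads on genes, and between 20943 and 22076 genes had at least 1 read. Levels are given as CPM, counts relative to the reads on genes of the library, scaled by TMM factors over all 22 libraries. A level of 3 counts in a library, used as the floor for genes at 0, lay between 0.136 and 0.180 CPM. The day 6 replicates lay close together, with 3 of 10856 genes at 5 CPM or more differing at least 2-fold. The shCtrl replicates were farther apart, with 250 of 10369 such genes, or 2.41%. The first principal component of the 2000 most variable genes held 73.9% of the variance and separated the day 6 libraries from the undifferentiated ones. The second held 11.3% and separated the undifferentiated EPS groups, with shCtrl cells at 43.6 and 43.0 and untransduced EPS cells at -37.8, -39.2 and -47.3. The day 6 EPS libraries lay between, at 4.32 and 4.80. Summed Y-linked genes reached 15.5 and 14.8 CPM on day 6, 3.22 and 3.12 CPM in shCtrl cells and between 16.5 and 26.8 CPM in untransduced EPS cells, and the part of this difference in the results was not tested.

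Yy1, the gene that the series manipulates elsewhere, is not a target in these cells. It stood at 115 and 110.4 CPM on day 6, against 127 and 137 CPM in shCtrl cells and 124, 135 and 120.4 CPM in untransduced EPS cells. The fall against shCtrl cells was small (log2 fold change -0.23 ± 0.07, edgeR adjusted p = 0.00422), and against untransduced EPS cells the difference was not called (-0.17, adjusted p = 0.0717). Without shCtrl replicate 2 the fall was not called either (-0.13), and without untransduced EPS replicate 3 the difference from that group was called (-0.20, edgeR adjusted p = 0.0353).

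Most of the measured transcriptome changed. A gene was called when edgeR's quasi-likelihood test gave a Benjamini-Hochberg adjusted p under 0.05 over all genes tested, and "rose" and "fell" are used of called genes. Where a pair of log2 fold changes stands behind a gene, the first is against shCtrl cells and the second against untransduced EPS cells. Of 17207 genes tested against shCtrl cells, 12755 (74.1%) were called, of which 6455 rose (37.5% of genes tested) and 6300 fell (36.6%). At least 2-fold changes were called for 4167 genes that rose (24.2%) and 3358 that fell (19.5%). At least 16-fold changes were called for 966 genes that rose and 765 that fell. The median log2 fold change over all genes tested was 0.01. Against untransduced EPS cells, 12526 of 17694 genes were called (70.8%), of which 6242 rose (35.3%) and 6284 fell (35.5%). Counts of members of a gene list are to be read against these shares. The lists were chosen with earlier results of these data known, so their counts are not an independent test. Statements that groups do not overlap describe single genes only. The share of all genes tested without overlap was not worked out. Many named genes were chosen for non-overlap or for a small p.

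**Figure D1:**
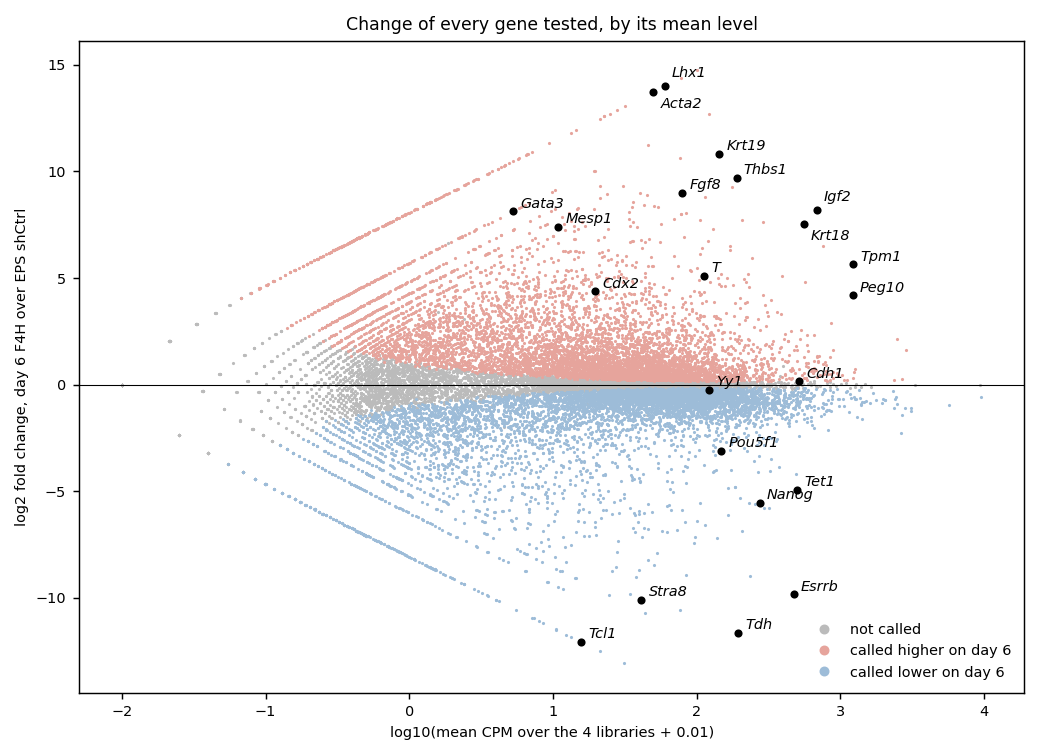
Log2 fold change of each of the 17207 genes tested, day 6 F4H over EPS shCtrl, against log10 of the mean CPM over the 4 libraries plus 0.01. Red points are the 6455 genes called higher and blue points the 6300 called lower; grey points were not called. The straight outer edges are genes with 0 counts in both libraries of a group, whose fitted fold depends on the prior count of the model.

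The genes of naive pluripotency fell as a whole list. All 20 listed genes were tested and all 20 fell against shCtrl cells, with a median log2 fold change of -5.84; against untransduced EPS cells 20 of 20 fell as well, with a median of -6.21. Nanog, a homeobox factor of the naive network, was at 11.4 and 11.7 CPM on day 6, against 549 and 528 CPM in shCtrl cells (log2 fold change -5.55 ± 0.09, adjusted p = 2.93e-21). Esrrb, a nuclear receptor of the same network, had 0.514 and 1.54 CPM on day 6, against 983 and 915 CPM in shCtrl cells (-9.84 ± 0.20). Both genes were low in both day 6 libraries and high in both shCtrl libraries, and the groups did not overlap. Klf4, a zinc finger factor downstream of LIF, stood at 11.1 and 9.88 CPM on day 6 and 601 and 559 CPM in shCtrl cells (-5.80 ± 0.10). Tfcp2l1, another target of LIF and of GSK3 inhibition, was at 11.6 and 11.2 CPM on day 6 and 609 and 642 CPM in shCtrl cells (-5.78 ± 0.10). Zfp42, a YY1-related zinc finger gene that marks naive cells, had 3.41 and 3.58 CPM on day 6 and 422 and 399 CPM in shCtrl cells (-6.88 ± 0.12). Tbx3 and Zfp57 fell less, with log2 fold changes of -2.35 and -1.92; against untransduced EPS cells that of Zfp57 was -0.98. Dppa3, a maternal factor that protects methylation, stood at 0.187 and 0.272 CPM on day 6, against 2.92 and 17.0 CPM in shCtrl cells, whose replicates differed; its log2 fold change was -5.40, and -3.58 without shCtrl replicate 2. Untransduced EPS cells held more of it, 75.6, 81.7 and 61.0 CPM. In bulk libraries, fewer cells of a type and less RNA per cell cannot be told apart.

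Pou5f1 and Sox2, the core pluripotency factors, also fell but stayed above 10 CPM. Pou5f1 was at 29.7 and 32.8 CPM on day 6, against 265 and 266 CPM in shCtrl cells and 486, 484 and 392 CPM in untransduced EPS cells (-3.09 ± 0.08 against shCtrl). Sox2 had 13.5 and 12.6 CPM on day 6, against 373 and 338 CPM in shCtrl cells (-4.78 ± 0.09). Every day 6 value of both genes was below every undifferentiated value. Of the 14 genes of the core and general list, 10 fell and 1 rose, and against untransduced EPS cells 1 rose and 11 fell. Dppa2, which binds promoters of germline and early embryonic genes, stood at 0.327 and 0.363 CPM on day 6, against 160.2 and 176 CPM in shCtrl cells and 37.1, 32.6 and 30.9 CPM in untransduced EPS cells (-8.91 ± 0.16 and -6.57). Utf1 was at 10.0 and 9.39 CPM on day 6, against 451 and 459.8 CPM in shCtrl cells (-5.56 ± 0.10). Lin28a, an RNA-binding repressor of let-7, was not called: it had 431 and 439 CPM on day 6 and 223 and 437 CPM in shCtrl cells, whose replicates lay far apart; it was called without shCtrl replicate 2 (1.00) and not without replicate 1 (0.033). The summed level of the 5 pluripotent markers was 58.5 and 62.2 CPM on day 6, against 2591 and 2445 CPM in shCtrl cells and between 3029 and 3421 CPM in untransduced EPS cells.

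**Figure D2:**
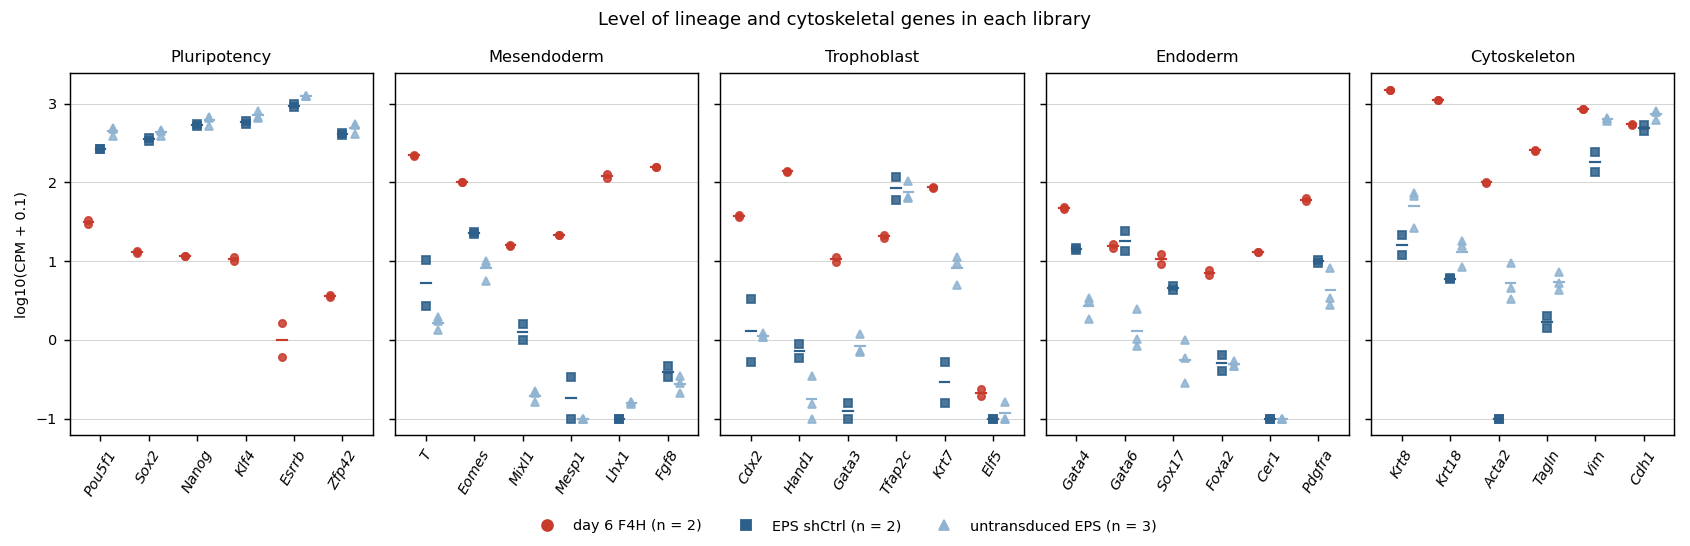
Level of 30 lineage and cytoskeletal genes as log10(CPM + 0.1) in each library: day 6 F4H (circles, n = 2), EPS shCtrl (squares, n = 2) and untransduced EPS (triangles, n = 3), with bars at the group means of the plotted values. The 6 pluripotency genes are lowest on day 6 and all 6 mesendoderm genes highest; Tfap2c is lower on day 6, and Elf5 stays under 0.2 CPM in all 7 libraries.

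Formative and primed epiblast genes were split. Of 21 tested, 7 rose and 11 fell, and against untransduced EPS cells 8 rose and 7 fell. Fgf5, a ligand switched on as the epiblast leaves the naive state, stood at 35.1 and 31.0 CPM on day 6, against 0.0596 and 0.300 CPM in shCtrl cells and 0.799, 0.497 and 0.732 CPM in untransduced EPS cells (7.46 ± 0.32 and 5.60). Otx2, a homeobox factor of the formative and anterior epiblast, was at 21.7 and 23.4 CPM on day 6, against 0.894 and 0.660 CPM in shCtrl cells and 7.37, 6.80 and 8.97 CPM in untransduced EPS cells (4.84 ± 0.26 and 1.55). Cdh2, N-cadherin, rose (3.66), and so did the POU factor gene Pou3f1 (1.81 and 3.90). In the other direction, Foxd3, a forkhead factor of the epiblast, had 0.187 and 0.0453 CPM on day 6, against 27.3 and 20.9 CPM in shCtrl cells (-7.63 ± 0.33). Etv5, an ETS factor induced by FGF signalling, fell in both comparisons (-2.63 and -2.54). Etv4, another, stood at 35.0 and 37.2 CPM on day 6, against 301 and 306 CPM in shCtrl cells and 52.2, 49.9 and 38.4 CPM in untransduced EPS cells (-3.08 ± 0.08 and -0.38), so that the size of its fall rested on the shCtrl libraries.

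The 8 largest rises by log2 fold change, among genes with a mean of at least 5 CPM, were Aplnr, Sprr2a3, Lhx1, Acta2, Ccdc80, Isg15, Klhl6 and Gbp2. The first 7 had 0 counts in both shCtrl libraries, so their fold is given as a lower bound against 3 counts per library. Aplnr, the receptor of the peptides apelin and Elabela that acts in gastrulation and heart formation (chr2:85136360-85139923, GRCm38.p6), was at 204 and 200.0 CPM on day 6 and 0.123, 0 and 0 CPM in untransduced EPS cells, at least 1127-fold higher than in shCtrl cells. Lhx1, a LIM homeobox factor of the organizer and of nascent mesoderm, had 127 and 113 CPM on day 6 and 0.0614, 0.0553 and 0.0610 CPM in untransduced EPS cells, at least 667-fold higher than in shCtrl cells. Sprr2a3, of the small proline-rich family of epithelial cross-linking proteins, stood at 149 and 162 CPM on day 6 and 0.0614, 0 and 0 CPM in untransduced EPS cells, at least 868-fold higher than in shCtrl cells; its near-identical paralogs make this assignment uncertain. Gbp2, an interferon-induced GTPase, was at 249.9 and 239.7 CPM on day 6, against 0.0596 and 0 CPM in shCtrl cells and 0.676, 1.22 and 1.95 CPM in untransduced EPS cells (8182-fold higher, 95% counting interval 1468 to 323202 over shCtrl). Intervals of this kind are exact and cover counting error only; they stand in place of a fitted fold for genes with 1 to 3 counts in a group. Acta2, Ccdc80 and Isg15 were above 0 in all 3 untransduced EPS libraries, and Ccdc80, a secreted matrix protein, had 62.9 and 63.5 CPM on day 6, against 2.64, 3.20 and 7.93 CPM there. Klhl6 stood at 47.1 and 52.2 CPM on day 6 and at 0, 0.111 and 0 CPM in untransduced EPS cells.

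The 8 largest falls were Mcf2, Phf11d, Rpl10l, Tcl1, Accsl, Sohlh2, Tdh and D1Pas1, of which all but Tdh were at 0 counts in both day 6 libraries. Mcf2, a guanine nucleotide exchange factor on the X chromosome, was at least 452-fold lower on day 6 than in shCtrl cells, where it had 67.5 and 57.4 CPM, and had 51.2, 51.8 and 62.3 CPM in untransduced EPS cells. Tcl1, a coactivator of AKT kinases in ES cells, was at least 226-fold lower on day 6 than in shCtrl cells, where it had 37.7 and 24.7 CPM. Sohlh2, a germ cell bHLH factor, was at least 179.7-fold lower on day 6 than in shCtrl cells, where its replicates differed, at 36.7 and 12.9 CPM, and had 4.36, 4.48 and 2.32 CPM in untransduced EPS cells. Phf11d and Rpl10l have close copies in the genome, so that reads may be shared with them. Over all genes, 38 had at least 5 CPM on day 6 and 0 counts in both shCtrl libraries, and 21 had 0 counts in both day 6 libraries and at least 5 CPM in shCtrl cells.

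Among the transcription factors of the lists, 17 had a mean of 5 CPM or more on day 6 and of under 1 CPM in shCtrl cells. The 8 with the largest fitted changes, all called, were Lhx1, Msgn1, Gata3, Hand1, Mesp1, Foxf1, Foxc1 and Msx1. These are factors of mesoderm, trophoblast and limb or craniofacial mesenchyme. Hand1, a bHLH factor of lateral mesoderm, heart and trophoblast giant cells, was at 134 and 142 CPM on day 6, against 0.775 and 0.480 CPM in shCtrl cells (7.75 ± 0.20) and 0.246, 0.0553 and 0 CPM in untransduced EPS cells. Msgn1, a bHLH factor of presomitic mesoderm, had 14.0 and 13.4 CPM on day 6, against 0.0596 and 0 CPM in shCtrl cells (458-fold higher, 95% counting interval 81.8 to 18111) and 0 counts in untransduced EPS cells. Foxc1, a forkhead factor of paraxial mesoderm, stood at 43.7 and 42.5 CPM on day 6, against 0.537 and 0.600 CPM in shCtrl cells (6.22 ± 0.25). The day 6 values of each were above all undifferentiated EPS values.

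Genes of gastrulation rose for the most part. Of 18 mesendoderm genes 15 rose and 3 fell (median 3.92 on the log2 scale), and against untransduced EPS cells 16 rose and 2 fell. T (brachyury), the T-box factor of the primitive streak, was at 219.9 and 221 CPM on day 6, against 2.56 and 10.2 CPM in shCtrl cells and 1.23, 1.88 and 1.65 CPM in untransduced EPS cells (5.10 ± 0.39 against shCtrl, adjusted p = 2.07e-06). Eomes, a T-box factor of trophoblast, primitive streak and endoderm, had 102 and 101 CPM on day 6, against 23.3 and 21.7 CPM in shCtrl cells (2.17 ± 0.12). Mesp1, a bHLH factor of cardiac progenitors, stood at 21.7 and 21.6 CPM on day 6, against 0 and 0.240 CPM in shCtrl cells and 0 in all untransduced EPS libraries (7.41 ± 0.44). Its 4 reads in shCtrl cells were all in replicate 2, and without that library the fitted log2 fold change was 11.54, a value that depends on the prior count. None of these groups overlapped. Mixl1 rose by 3.71 and Gsc, a factor of the organizer, by 3.82 on the log2 scale. The members that fell were Cdx1, Tbx3 and Cdx4, the last under 3 CPM in all 4 libraries and not called without shCtrl replicate 2 (-1.25). Cdx1, a caudal homeobox factor, depended on the baseline, at 2.57 and 2.45 CPM on day 6, 92.0 and 161 CPM in shCtrl cells and 1.17, 1.44 and 1.46 CPM in untransduced EPS cells.

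Later mesoderm genes followed. Of 22 paraxial and lateral mesoderm genes 19 rose and 1 fell, with a median of 4.07, or 3.60 with genes at 0 counts set to their bound, and against untransduced EPS cells 17 rose and 1 fell. Tbx20, a cardiac T-box factor, was at 30.8 and 34.3 CPM on day 6, against 1.43 and 0.720 CPM in shCtrl cells (4.90 ± 0.23). Isl1, a LIM factor of the second heart field, had 14.2 and 12.2 CPM on day 6, against 0.894 and 0.720 CPM in shCtrl cells (4.01 ± 0.25). Twist1, a bHLH factor of mesenchyme, stood at 36.9 and 36.4 CPM on day 6, against 2.74 and 2.10 CPM in shCtrl cells (3.91 ± 0.18). The groups did not overlap for any of the 3. Tcf15 was the member that fell (-4.41); against untransduced EPS cells it was not called (0.24). Hox genes, which pattern the trunk, were mostly low: 18 of 34 tested rose and 6 fell, and against untransduced EPS cells 27 of 35 rose. Hoxd9 was at 17.2 and 16.8 CPM on day 6, against 0.537 and 0.420 CPM in shCtrl cells (5.12 ± 0.27) and 0.184, 0.0553 and 0.0610 CPM in untransduced EPS cells. Hoxc8 had 5.84 and 5.85 CPM on day 6 and had 0 counts in both shCtrl libraries.

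Blood and vessel genes were divided, with 9 of 17 rising and 6 falling, and against untransduced EPS cells 9 rose and 3 fell. Kdr, the VEGF receptor of vascular progenitors, stood at 24.0 and 24.1 CPM on day 6, against 0.358 and 0.240 CPM in shCtrl cells and 1.29, 1.16 and 1.04 CPM in untransduced EPS cells (6.29 ± 0.23 and 4.36). Pecam1, which is also expressed by naive stem cells, was at 3.79 and 3.45 CPM on day 6, against 93.3 and 58.3 CPM in shCtrl cells (-4.39 ± 0.22). Neural genes mostly fell, 14 of 22 tested, with 4 that rose, the same counts as against untransduced EPS cells. Elavl3, a neuronal RNA-binding protein, had 0.0467 and 0.0453 CPM on day 6, against 14.5 and 18.9 CPM in shCtrl cells (363-fold lower, 95% counting interval 99.9 to 3002). Tubb3, neuronal tubulin, stood at 5.75 and 5.35 CPM on day 6, against 60.7 and 64.2 CPM in shCtrl cells (-3.50 ± 0.12). Among those that rose were Sox11 (1.79), Sox4 (2.53 and 4.71) and Nes (2.40 and 0.61), which are not restricted to neural cells.

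Trophoblast genes gave a partial pattern. Of 24 trophoblast transcription factors tested, 15 rose and 6 fell, and against untransduced EPS cells 14 rose and 6 fell. Cdx2, the caudal factor of trophectoderm and of the posterior embryo, was at 38.4 and 36.8 CPM on day 6, against 0.417 and 3.18 CPM in shCtrl cells and 0.983, 1.11 and 0.976 CPM in untransduced EPS cells (4.37 ± 0.40). Gata3, a zinc finger factor of trophectoderm, had 11.3 and 9.61 CPM on day 6, against 0.0596 and 0 CPM in shCtrl cells (349-fold higher, 95% counting interval 62.4 to 13826) and 0.614, 0.608 and 1.10 CPM in untransduced EPS cells (log2 fold change 3.75). Krt7, a keratin of trophoblast and other simple epithelia, stood at 85.5 and 87.5 CPM on day 6, against 0.417 and 0.0600 CPM in shCtrl cells and 11.1, 9.45 and 4.94 CPM in untransduced EPS cells (8.45 ± 0.23 and 3.34). For all 3 the day 6 values were above every undifferentiated value. Tfap2c, an AP-2 factor needed in trophoblast stem cells, went the other way, at 19.9 and 21.6 CPM on day 6, against 60.5 and 118 CPM in shCtrl cells (-2.11 ± 0.25). Elf5, the ETS factor that gates the trophoblast stem cell state, was too low to be tested, at 0.0935 and 0.136 CPM on day 6 and 0 counts in shCtrl cells. Of the 7 markers of differentiated trophoblast, 5 had 0 counts in both day 6 libraries, and their summed level was 0.467 and 0.227 CPM on day 6, against 0.596 and 0.660 CPM in shCtrl cells. The 9 trophoblast markers, which include Eomes and Hand1 shared with mesoderm, summed to 404 and 411 CPM on day 6, against 90.3 and 145 CPM in shCtrl cells; 7 rose, 1 fell and 1 was not tested. The 6 mesoderm markers summed to 281 CPM in each day 6 library, against 4.65 and 12.5 CPM in shCtrl cells, and all 6 rose. How far mesoderm cells account for the shared genes was not tested.

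Primitive endoderm genes depended on which undifferentiated group was used. Against shCtrl cells 10 of 18 regulators rose and 5 fell, with a median of 1.42; against untransduced EPS cells 14 rose and 2 fell, with a median of 4.13. Gata4 was at 45.3 and 48.1 CPM on day 6, against 13.8 and 14.5 CPM in shCtrl cells and 3.01, 1.77 and 3.29 CPM in untransduced EPS cells (1.72 ± 0.12 and 4.12). Gata6 had 14.6 and 16.4 CPM on day 6, against 24.3 and 13.6 CPM in shCtrl cells, where it was not called (-0.29 ± 0.19; 0.23 without replicate 1, and -0.61, called, without replicate 2), and 0.737, 0.939 and 2.38 CPM in untransduced EPS cells, where it rose (3.52). Sox17, which also marks definitive endoderm, stood at 12.3 and 9.11 CPM on day 6, against 4.71 and 4.26 CPM in shCtrl cells and 0.184, 0.884 and 0.488 CPM in untransduced EPS cells. The shCtrl libraries thus held more of these GATA and SOX factors than the untransduced ones, and day 6 was set against a raised level there. Sox7, a SOX factor of parietal endoderm and endothelium, fell (-3.93). Pdgfra, a receptor of primitive endoderm and of mesoderm, rose (2.62). The 9 primitive and visceral endoderm markers summed to 131 and 138 CPM on day 6, against 65.9 and 57.8 CPM in shCtrl cells and between 9.59 and 17.9 CPM in untransduced EPS cells; 3 rose and 3 fell against shCtrl cells among the 7 tested.

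Genes of visceral endoderm uptake were split evenly, 6 higher and 6 lower of 14 tested, and against untransduced EPS cells 9 rose and 6 fell of 15. The even split was near the shares over all genes tested against shCtrl cells, 37.5% higher and 36.6% lower. Lrp2 (megalin), an endocytic receptor, was at 114 and 108 CPM on day 6, against 16.8 and 18.2 CPM in shCtrl cells (2.65 ± 0.10). Cubn, its partner receptor, had 0.794 and 0.453 CPM on day 6, against 6.20 and 11.0 CPM in shCtrl cells and 0.246, 0.0553 and 0.427 CPM in untransduced EPS cells. The directions of the pair differed against shCtrl cells and did not differ against untransduced EPS cells, where both rose (5.52 and 1.36). Of 14 gut and definitive endoderm genes 10 rose and 2 fell, and against untransduced EPS cells 10 rose and 1 fell. Foxa2, a pioneer factor of endoderm, node and notochord, stood at 7.62 and 6.53 CPM on day 6, against 0.298 and 0.540 CPM in shCtrl cells (4.05 ± 0.46). Cer1, a secreted inhibitor of Nodal, BMP and Wnt, was at 13.1 and 12.9 CPM on day 6 and had 0 counts in all 5 undifferentiated EPS libraries, at least 72.3-fold higher than in shCtrl cells.

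Among FGF genes the ligands changed places. Of 21 ligands, receptors and cofactors 14 rose and 3 fell, and against untransduced EPS cells 14 rose and 5 fell. Fgf4, the ligand of the naive epiblast, had 1.54 and 1.04 CPM on day 6, against 162 and 127 CPM in shCtrl cells (-6.81 ± 0.18). Fgf8, a ligand of the primitive streak, stood at 157 and 159 CPM on day 6, against 0.239 and 0.360 CPM in shCtrl cells (9.01 ± 0.20). Neither ligand overlapped between groups, and they moved in opposite directions. Fgfr1, a receptor of epiblast and mesoderm, was at 371 and 369 CPM on day 6, against 84.4 and 85.4 CPM in shCtrl cells (2.12 ± 0.08). Fgfr2, the receptor of trophectoderm, had 49.5 and 48.2 CPM on day 6, against 1.85 and 3.72 CPM in shCtrl cells and 15.9, 14.2 and 25.7 CPM in untransduced EPS cells (4.12 ± 0.20 and 1.40). Gpc3, a heparan sulphate proteoglycan, rose (3.75). Of 21 ERK feedback and immediate early genes 12 rose and 7 fell, and against untransduced EPS cells 10 rose and 6 fell. Egr1, an immediate early factor, stood at 249 and 243 CPM on day 6, against 27.5 and 27.8 CPM in shCtrl cells and 172, 171 and 81.3 CPM in untransduced EPS cells. Dusp6, an ERK phosphatase, rose (1.17), and Spry4, a feedback inhibitor, fell (-1.91).

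LIF pathway genes fell for the most part, 11 of 15, with 3 that rose, and against untransduced EPS cells 1 rose and 11 fell. Stat3, the transducer of LIF, was at 89.0 and 90.8 CPM on day 6, against 151 and 155 CPM in shCtrl cells (-0.77 ± 0.08). Socs3, its feedback inhibitor, had 64.6 and 64.0 CPM on day 6, against 91.8 and 112 CPM in shCtrl cells and 222, 226 and 123 CPM in untransduced EPS cells (-0.67 ± 0.10 and -1.57). Both were lower on day 6 in every library.

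Wnt genes rose in part. Of 20 genes 12 rose, 1 fell and 7 were not called, and against untransduced EPS cells 14 rose and 1 fell. Wnt3, the ligand that initiates the primitive streak, stood at 46.9 and 48.6 CPM on day 6, against 0 and 0.180 CPM in shCtrl cells (533-fold higher, 95% counting interval 182 to 2585). Rspo3, a secreted amplifier of Wnt signalling, was at 60.3 and 62.8 CPM on day 6, against 0 and 0.180 CPM in shCtrl cells (687-fold higher, 95% counting interval 235 to 3331) and 0.737, 0.884 and 1.04 CPM in untransduced EPS cells (log2 fold change 6.11). Dkk1, a secreted inhibitor, had 19.5 and 20.6 CPM on day 6, against 0.358 and 0.960 CPM in shCtrl cells (4.91 ± 0.28). The day 6 values of all 3 were above every undifferentiated value. Axin2, a feedback gene used as a reporter of canonical signalling, was not called, at 52.5 and 52.2 CPM on day 6 and 37.0 and 57.7 CPM in shCtrl cells (0.14 ± 0.18; -0.10 without replicate 1, and 0.54, called, without replicate 2), and was lower than in untransduced EPS cells (-0.64). Lef1 could not be judged, since its day 6 values of 45.8 and 45.3 CPM lay between the shCtrl replicates at 3.46 and 49.6 CPM; without replicate 2 it was called (3.76) and without replicate 1 it was not (-0.084). The promoters of T and Dkk1 are shown because they hold a TCF/LEF motif and both genes rose. The window runs from 250 bases before to 50 bases after the start, read 5′ to 3′ on the gene's strand from RefSeq (GRCm38.p6), with TTCAAAG or its reverse complement in capitals.
T, chr17:8434173-8434472, plus strand, match at -235 to -229: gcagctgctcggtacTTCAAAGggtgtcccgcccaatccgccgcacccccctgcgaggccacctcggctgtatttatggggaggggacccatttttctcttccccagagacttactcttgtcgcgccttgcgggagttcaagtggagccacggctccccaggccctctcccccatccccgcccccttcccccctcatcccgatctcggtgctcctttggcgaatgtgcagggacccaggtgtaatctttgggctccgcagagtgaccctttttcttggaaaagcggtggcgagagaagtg
Dkk1, chr19:30549447-30549746, minus strand, match at -117 to -111: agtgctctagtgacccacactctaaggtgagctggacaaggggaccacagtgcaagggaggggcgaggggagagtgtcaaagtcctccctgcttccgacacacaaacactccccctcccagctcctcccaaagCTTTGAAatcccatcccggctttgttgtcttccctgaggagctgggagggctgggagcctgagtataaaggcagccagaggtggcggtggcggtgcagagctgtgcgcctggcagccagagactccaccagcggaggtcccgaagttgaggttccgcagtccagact
The 7 letters TTCAAAG were found on either strand in the promoters of 3 of 13 matched genes of the Wnt list (23.1%) and of 1602 of all 27025 genes with a promoter in the table (5.93%). Sp8, the other gene with the motif, rose as well (2.47). The Wnt list was compiled from targets and feedback genes, so its share is not independent of the motif, and it rests on 3 genes. A match describes the letters only.

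BMP genes rose nearly throughout, 19 of 21 with 1 that fell, and against untransduced EPS cells 17 rose and 3 fell. Bmp4, the ligand of extraembryonic ectoderm and mesoderm, stood at 215 and 217 CPM on day 6, against 48.5 and 48.8 CPM in shCtrl cells (2.14 ± 0.09). Bmp2 was at 44.2 and 45.2 CPM on day 6, against 0.358 and 0.360 CPM in shCtrl cells and 2.27, 2.54 and 3.97 CPM in untransduced EPS cells (6.92 ± 0.19 and 3.93). Id1, a direct target of SMAD1 and SMAD5, had 109.7 and 114 CPM on day 6, against 9.60 and 8.70 CPM in shCtrl cells (3.60 ± 0.10). Nog, the secreted BMP antagonist noggin, stood at 70.7 and 71.1 CPM on day 6, against 0.716 and 0.600 CPM in shCtrl cells (6.73 ± 0.18). Ligands, target and antagonist were all higher on day 6 with no overlap. Id2 rose against shCtrl cells (5.31) and was not called against untransduced EPS cells, with 55.9 and 56.9 CPM on day 6, against 51.8, 52.8 and 40.8 CPM in untransduced EPS cells. Smad7, the inhibitory SMAD, was the member that fell against shCtrl cells (-1.30, and -0.80 without replicate 1), and it rose against untransduced EPS cells (0.93).

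In the Nodal and TGF-beta list 14 of 21 rose and 4 fell, and against untransduced EPS cells 13 rose and 4 fell. Nodal itself was not called, at 38.1 and 38.4 CPM on day 6 and 43.2 and 26.9 CPM in shCtrl cells (0.12; 0.55, called, without replicate 1, and -0.13 without replicate 2), and was lower than in untransduced EPS cells (-1.21). Tdgf1 (Cripto), its coreceptor, was at 333 and 336 CPM on day 6, against 857 and 646 CPM in shCtrl cells (-1.17 ± 0.10). Tgfb2 had 92.8 and 92.9 CPM on day 6, against 0.835 and 0.780 CPM in shCtrl cells and 5.16, 4.92 and 10.4 CPM in untransduced EPS cells (6.83 ± 0.13 and 3.77). The level of the TGF-beta ligand was thus raised on day 6 where that of Nodal was not. Smad3, a receptor-activated effector of this branch, rose (2.47). Of 15 Notch genes 12 rose and 2 fell, and against untransduced EPS cells 10 rose and 3 fell. Dll1, a ligand of presomitic mesoderm, stood at 49.5 and 54.5 CPM on day 6, against 2.39 and 3.06 CPM in shCtrl cells and 8.85, 7.79 and 20.3 CPM in untransduced EPS cells (4.24 ± 0.22 and 2.08), and its relative Dll3 rose by 4.27. Of 17 retinoic acid genes 11 rose and 4 fell, and against untransduced EPS cells 11 rose and 2 fell. Cyp26a1, the enzyme that degrades retinoic acid, was at 231 and 228 CPM on day 6, against 0.477 and 0.540 CPM in shCtrl cells (8.79 ± 0.17). Stra8, a retinoic acid target of germ cells, had 0.0467 and 0.0907 CPM on day 6, against 85.9 and 79.3 CPM in shCtrl cells and 0.430, 0.111 and 0.549 CPM in untransduced EPS cells. Stra8 was thus high in the shCtrl libraries and not in the untransduced ones.

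Epithelial keratins reached high levels. Of 21 keratin and junction genes tested 18 rose and 1 fell, with a median of 3.22 against shCtrl cells and 1.74 against untransduced EPS cells, where 15 rose and 2 fell. Krt8 stood at 1480.2 and 1510.4 CPM on day 6, against 21.2 and 11.8 CPM in shCtrl cells and 67.3, 73.7 and 26.2 CPM in untransduced EPS cells (6.50 ± 0.21 and 4.74). Krt18, its filament partner, was at 1109 and 1103 CPM on day 6, against 6.02 and 5.76 CPM in shCtrl cells and 15.4, 17.8 and 8.24 CPM in untransduced EPS cells (7.54 ± 0.10 and 6.32). Krt19 had 286 and 288 CPM on day 6, against 0.179 and 0.120 CPM in shCtrl cells and 15.3, 15.5 and 2.14 CPM in untransduced EPS cells (10.83 ± 0.16 and 4.70). All 3 were separated from both undifferentiated groups. Dsp, desmoplakin of desmosomes, rose (4.58). Cdh1, E-cadherin, was not called, at 545 and 547 CPM on day 6 and 445 and 534 CPM in shCtrl cells (0.15; 0.072 without replicate 1, and 0.34, called, without replicate 2), and was lower than in untransduced EPS cells (-0.45). Cldn4, a tight junction claudin, rose against shCtrl cells (3.22) and fell against untransduced EPS cells (-0.70).

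Mesenchymal genes rose in the same libraries, 16 of 19 tested with 1 that fell, and against untransduced EPS cells 17 rose and none fell. Vim, vimentin, stood at 851 and 859.8 CPM on day 6, against 138 and 245 CPM in shCtrl cells and 653, 647 and 609 CPM in untransduced EPS cells (2.15 ± 0.21 and 0.43); its call against untransduced EPS cells was lost without day 6 replicate 1 or replicate 2 (edgeR adjusted p = 0.0517 and 0.0599). Snai1, a zinc finger repressor of E-cadherin, was at 82.2 and 78.3 CPM on day 6, against 3.70 and 4.68 CPM in shCtrl cells (4.25 ± 0.15). S100a6, a calcium-binding protein, had 341 and 362 CPM on day 6, against 0.477 and 0.660 CPM in shCtrl cells and 37.4, 47.3 and 35.7 CPM in untransduced EPS cells (9.25 ± 0.17 and 3.13). Each day 6 value was above each undifferentiated value for these genes.

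Contractile genes rose almost without exception. Of 22 smooth muscle and SRF target genes 21 rose and none fell against shCtrl cells, with a median of 3.14; 1 was not called. Against untransduced EPS cells 19 rose and none fell. Acta2, smooth muscle actin, stood at 101 and 99.3 CPM on day 6 and 3.20, 4.42 and 9.52 CPM in untransduced EPS cells, at least 557-fold higher than in shCtrl cells, where it had 0 counts. Tagln, transgelin, was at 253 and 261 CPM on day 6, against 1.31 and 1.92 CPM in shCtrl cells and 4.24, 5.14 and 7.20 CPM in untransduced EPS cells (7.30 ± 0.12 and 5.54). Tpm1, a tropomyosin, had 2389.6 and 2416 CPM on day 6, against 43.0 and 53.2 CPM in shCtrl cells (5.64 ± 0.10). The groups did not overlap for any of them. Actc1, cardiac actin, stood at 4.21 and 5.76 CPM on day 6 and had 0 counts in all undifferentiated EPS libraries. Fhl2, a LIM protein of heart, was at 20.8 and 20.4 CPM on day 6, against 0 and 0.120 CPM in shCtrl cells (344-fold higher, 95% counting interval 95.03 to 2847) and 3.01, 2.87 and 4.15 CPM in untransduced EPS cells (log2 fold change 2.62). Srf itself rose slightly against shCtrl cells (0.45) and was not called against untransduced EPS cells. The promoters of Actc1 and Fhl2 are shown because they hold the CArG box, the site that SRF binds, which stands in capitals.
Actc1, chr2:114052826-114053125, minus strand, match at -47 to -38: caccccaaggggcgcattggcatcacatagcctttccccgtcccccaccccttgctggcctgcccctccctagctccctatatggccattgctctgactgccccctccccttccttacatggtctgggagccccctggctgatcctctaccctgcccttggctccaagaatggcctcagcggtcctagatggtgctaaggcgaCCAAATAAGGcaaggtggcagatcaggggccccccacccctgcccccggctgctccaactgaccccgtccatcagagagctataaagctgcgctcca
Fhl2, chr1:43196712-43197011, minus strand, match at -96 to -87: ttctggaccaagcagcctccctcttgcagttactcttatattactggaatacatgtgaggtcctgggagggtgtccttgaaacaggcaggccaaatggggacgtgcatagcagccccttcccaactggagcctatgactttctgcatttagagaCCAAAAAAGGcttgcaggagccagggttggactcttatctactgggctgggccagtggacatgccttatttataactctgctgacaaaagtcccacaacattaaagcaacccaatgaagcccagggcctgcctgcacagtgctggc
The CArG box was found on either strand in the promoters of 8 of 20 matched genes of the list (40%), Cnn2, Myl9, Vcl, Fhl1, Fhl2, Srf, Acta1 and Actc1, and of 488 of all 27025 genes (1.81%). The list was compiled from known SRF targets, so this share is not independent of the motif.

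YAP and TEAD targets, which respond to cell spreading and tension, rose for 17 of 20 genes, with 1 that fell, against shCtrl cells, and against untransduced EPS cells 16 rose and 3 fell. Cyr61, a matricellular protein, had 289 and 284 CPM on day 6, against 12.6 and 10.8 CPM in shCtrl cells and 231, 227 and 108 CPM in untransduced EPS cells (4.61 ± 0.11 and 0.61). Amotl2, an angiomotin that binds YAP, stood at 667 and 654 CPM on day 6, against 66.0 and 56.3 CPM in shCtrl cells and 341, 361 and 359 CPM in untransduced EPS cells (3.43 ± 0.08 and 0.90). Ctgf, a connective tissue growth factor, rose against shCtrl cells (1.39) and fell against untransduced EPS cells (-1.95). These 3 targets were thus lower in the shCtrl libraries than in the untransduced ones, and the size of the rise depended on the baseline. Ptpn14, a phosphatase that restrains YAP, was at 259 and 263 CPM on day 6, against 32.4 and 29.1 CPM in shCtrl cells and 19.9, 20.4 and 32.3 CPM in untransduced EPS cells (3.08 ± 0.08 and 3.43). Axl, a receptor tyrosine kinase, had 64.4 and 61.0 CPM on day 6, against 2.27 and 1.62 CPM in shCtrl cells and 8.11, 8.07 and 18.5 CPM in untransduced EPS cells (5.00 ± 0.14 and 2.44). Ankrd1, a cardiac ankyrin repeat protein, stood at 3.97 and 3.36 CPM on day 6 and had 0 counts in shCtrl cells. The promoters of Ankrd1 and Axl are shown because they hold GGAATG, the core that TEAD factors bind, in capitals.
Ankrd1, chr19:36119795-36120094, minus strand, first of 2 matches at -210 to -205: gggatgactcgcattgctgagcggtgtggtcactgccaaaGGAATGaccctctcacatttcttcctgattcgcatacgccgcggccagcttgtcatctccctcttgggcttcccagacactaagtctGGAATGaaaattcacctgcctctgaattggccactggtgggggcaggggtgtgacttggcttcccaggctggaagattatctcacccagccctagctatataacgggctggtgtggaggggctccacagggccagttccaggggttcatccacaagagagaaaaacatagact
Axl, chr7:25788684-25788983, minus strand, match at -233 to -228: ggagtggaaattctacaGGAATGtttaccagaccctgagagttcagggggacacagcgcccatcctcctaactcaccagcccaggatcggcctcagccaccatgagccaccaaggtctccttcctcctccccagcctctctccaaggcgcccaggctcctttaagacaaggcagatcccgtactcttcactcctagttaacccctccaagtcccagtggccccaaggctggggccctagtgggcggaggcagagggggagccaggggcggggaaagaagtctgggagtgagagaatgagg
GGAATG was found on either strand in the promoters of 11 of 15 matched genes of the list (73.3%) and of 4481 of all 27025 genes (16.6%). This list too was compiled from known targets. Matches to different motifs share bases in none of the 6 promoters printed, and GGAATG overlaps the CArG box in 6 and TTCAAAG in 6 of all 32851 windows.

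Matrix genes depended strongly on the baseline. Of 23 fibroblast and feeder matrix genes tested against shCtrl cells 20 rose and 1 fell, with a median of 4.46, or 4.22 with genes at 0 counts set to their bound. Against untransduced EPS cells 7 of 24 rose and 12 fell, with a median of -0.82. Col1a1, fibrillar collagen, was at 167 and 167 CPM on day 6, against 0.716 and 0.540 CPM in shCtrl cells and 68.4, 66.3 and 191 CPM in untransduced EPS cells (8.03 ± 0.17, and 0.62, not called). Thbs1, thrombospondin, had 384 and 377 CPM on day 6, against 0.417 and 0.480 CPM in shCtrl cells and 19.4, 23.8 and 66.1 CPM in untransduced EPS cells (9.70 ± 0.22 and 3.39). Thbs1 was above both groups, whereas Col1a1 overlapped with the untransduced libraries. The 7 feeder fibroblast markers summed to 343 and 346 CPM on day 6, against 18.1 and 8.64 CPM in shCtrl cells and between 248 and 711 CPM in untransduced EPS cells; 6 rose and 1 fell against shCtrl cells and none had 0 counts in both libraries of a group. The part of feeder cells in the matrix, mesenchymal and contractile genes was not tested. Basement membrane genes were steadier, 15 of 20 higher and 3 lower against shCtrl cells and 14 higher and 4 lower against untransduced EPS cells. Col4a1, a type IV collagen, stood at 307 and 309.7 CPM on day 6, against 51.4 and 98.4 CPM in shCtrl cells (2.03 ± 0.22), and Lama1, a laminin chain of the early embryo, fell (-0.93).

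**Figure D3:**
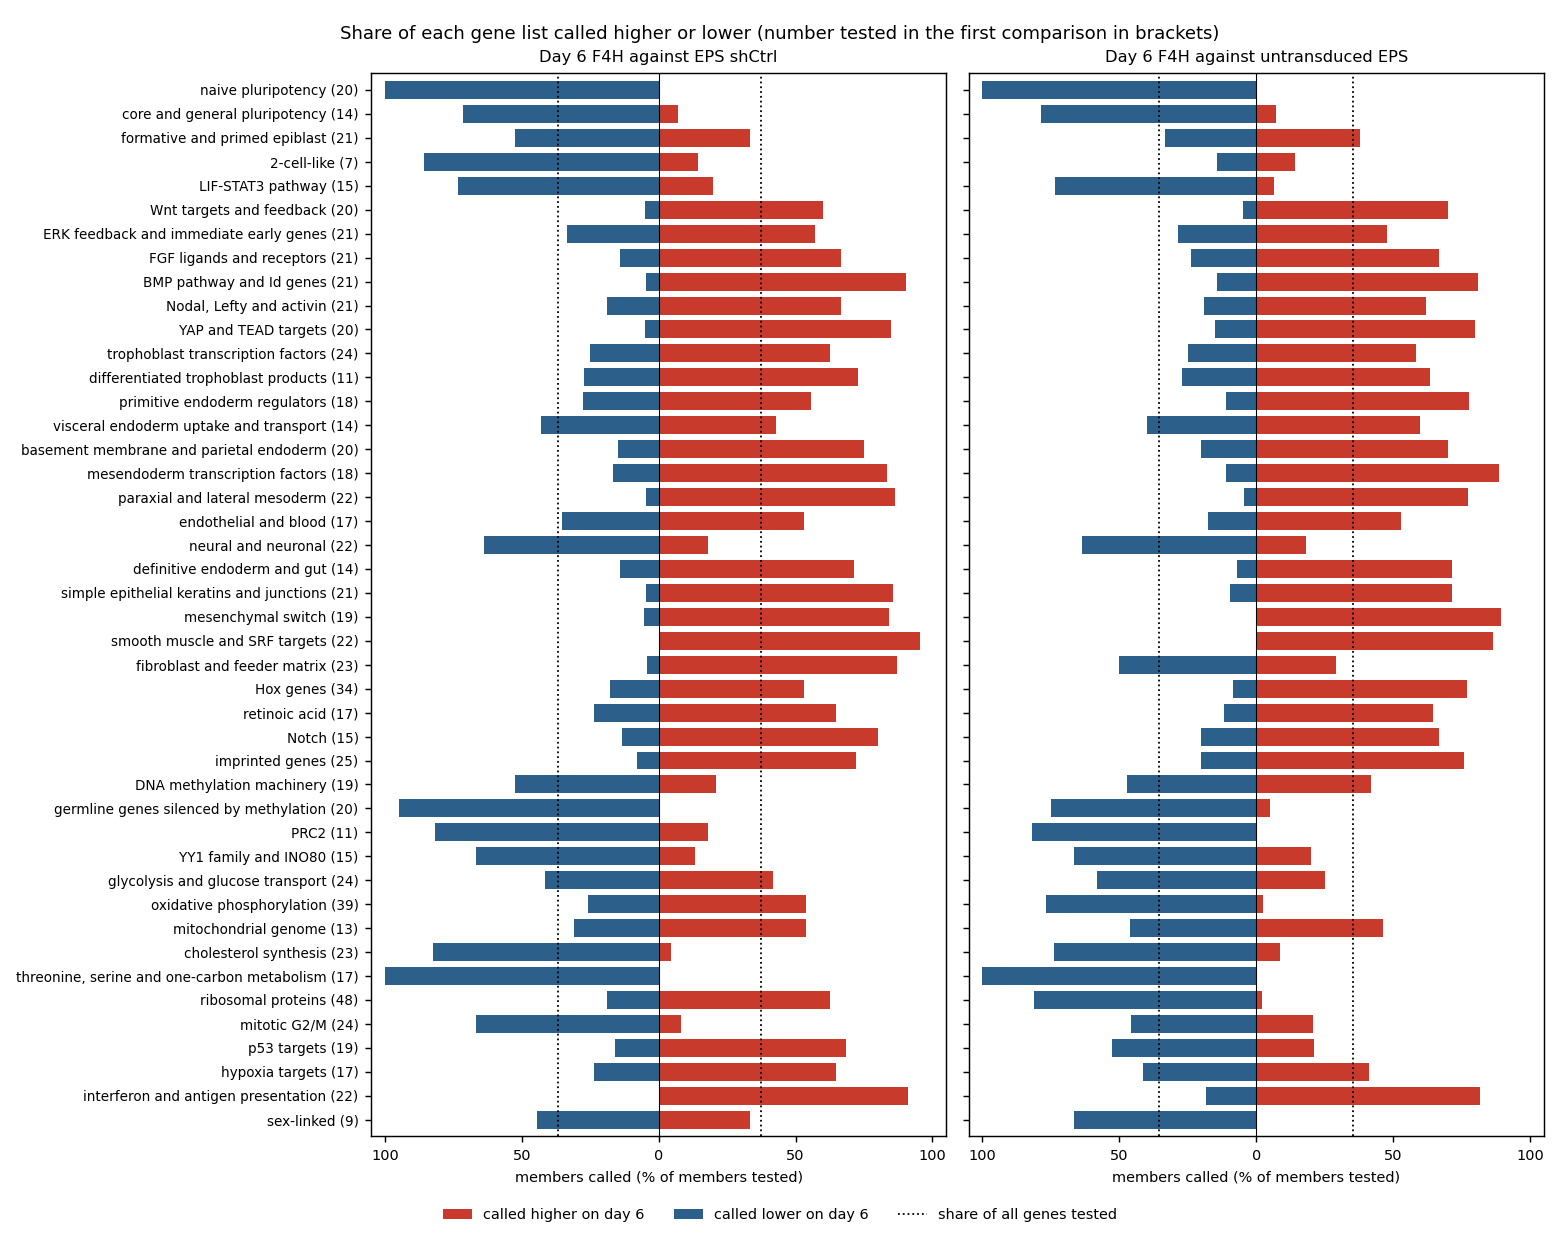
Share of the tested members of each gene list called higher (red, to the right) or lower (blue, to the left) on day 6, in percent, against EPS shCtrl (left panel) and untransduced EPS (right panel). Dotted lines mark the shares over all genes tested, 37.5% and 36.6% on the left and 35.3% and 35.5% on the right; all naive pluripotency genes lie on the left in both panels, and the fibroblast, oxidative phosphorylation, ribosomal and p53 lists change sides.

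The DNA methylation machinery fell for 10 of 19 genes and rose for 4 against shCtrl cells, with a median of -0.58. Relative to untransduced EPS cells 9 fell and 8 rose, and the median was 0.16, of the other sign. Tet1, the dioxygenase of pluripotent cells, was at 31.3 and 32.1 CPM on day 6, against 1032 and 901 CPM in shCtrl cells and 357, 334 and 453 CPM in untransduced EPS cells (-4.94 ± 0.13 and -3.59). Dnmt3l, the cofactor of de novo methyltransferases, had 0.187 and 0.499 CPM on day 6, against 43.5 and 68.7 CPM in shCtrl cells (-7.32 ± 0.34). Both were lower on day 6 than in all undifferentiated libraries. Dnmt3a, a de novo methyltransferase, fell against shCtrl cells (-0.96) and rose against untransduced EPS cells (1.68). Dnmt3b, another, was not called in either comparison (-0.40 against shCtrl cells), but was without shCtrl replicate 1 (-0.74) and, in the other direction, without replicate 2 (0.17). Germline genes that promoter methylation silences fell for 19 of 20 tested and none rose against shCtrl cells, with a median of -4.83, or -4.44 with genes at 0 counts set to their bound. Dazl, a germ cell RNA-binding protein, stood at 0.0467 and 0.0907 CPM on day 6, against 18.7 and 8.28 CPM in shCtrl cells (195-fold lower, 95% counting interval 66.4 to 951). Piwil2, a piRNA-binding protein, was at 0.654 and 0.589 CPM on day 6, against 34.7 and 25.1 CPM in shCtrl cells (-5.58 ± 0.24). Against untransduced EPS cells 15 of these genes fell and 1 rose.

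Imprinted genes mostly rose, 18 of 25 with 2 that fell, and against untransduced EPS cells 19 rose and 5 fell. Igf2, a growth factor of the paternal allele, had 1356 and 1383 CPM on day 6, against 5.25 and 3.96 CPM in shCtrl cells and 70.1, 66.3 and 258 CPM in untransduced EPS cells (8.21 ± 0.12 and 3.38). H19, the noncoding RNA of the same locus from the maternal allele, stood at 576 and 585 CPM on day 6, against 3.52 and 2.40 CPM in shCtrl cells and 61.3, 64.2 and 289 CPM in untransduced EPS cells (7.60 ± 0.13 and 2.07). Both genes are also abundant in embryonic fibroblasts, and the third untransduced library was the highest of its group for both, as it was for Col1a1. The part of feeder cells in the levels of Igf2 and H19 was not tested. Peg10, a retrotransposon-derived placental gene, was at 2317 and 2323 CPM on day 6, against 50.2 and 202 CPM in shCtrl cells (4.19 ± 0.54). Peg3, a zinc finger gene, rose by 4.81 against shCtrl cells and 2.96 against untransduced EPS cells. PRC2, the Polycomb complex that methylates H3K27, fell for 9 of 11 genes and rose for 2, and against untransduced EPS cells 9 fell and none rose. Eed, its core reader, had 70.6 and 65.0 CPM on day 6, against 195 and 198 CPM in shCtrl cells (-1.54 ± 0.07), and Jarid2, an accessory subunit, fell by 1.84 on the log2 scale. In the YY1 family and INO80 complex 10 of 15 genes fell and 2 rose, and against untransduced EPS cells 3 rose and 10 fell; Ino80, its ATPase, stood at 47.0 and 46.2 CPM on day 6, against 113 and 129 CPM in shCtrl cells (-1.38 ± 0.08).

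Threonine, serine and folate metabolism fell throughout, all 17 of 17 genes in both comparisons. Tdh, threonine dehydrogenase, on which mouse ES cells depend, was at 0 and 0.227 CPM on day 6, against 313 and 464 CPM in shCtrl cells (-11.64 ± 0.37). Gldc, of the glycine cleavage system, had 46.6 and 47.2 CPM on day 6, against 349 and 455 CPM in shCtrl cells (-3.11 ± 0.14). Psat1, of serine synthesis, stood at 98.5 and 97.2 CPM on day 6, against 588 and 531 CPM in shCtrl cells (-2.52 ± 0.08). Every library of day 6 was below every undifferentiated one for these enzymes. Cholesterol synthesis genes fell for 19 of 23 and rose for 1, and against untransduced EPS cells 2 rose and 17 fell. Idi1, an isomerase of the mevalonate pathway, was at 17.9 and 17.9 CPM on day 6, against 133 and 126 CPM in shCtrl cells and 64.1, 68.8 and 60.2 CPM in untransduced EPS cells (-2.86 ± 0.09 and -1.85), and Insig1, a sterol sensor, fell by 2.69.

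Glycolysis genes were split 10 to 10 of 24 against shCtrl cells, near the 37.5% higher and 36.6% lower over all genes tested. Against untransduced EPS cells 6 rose and 14 fell. Slc2a1, the glucose transporter GLUT1, had 1097 and 1118 CPM on day 6, against 184 and 249 CPM in shCtrl cells (2.35 ± 0.11). Slc2a3, GLUT3, stood at 4075 and 4083 CPM on day 6, against 941 and 883 CPM in shCtrl cells and 1851, 1748 and 1502 CPM in untransduced EPS cells (2.15 ± 0.09 and 1.26). Pfkp, a phosphofructokinase, was at 44.6 and 45.1 CPM on day 6, against 357 and 250.3 CPM in shCtrl cells (-2.76 ± 0.12). Transporters and this enzyme moved in opposite directions, in both comparisons. Several housekeeping lists changed direction with the baseline. Nuclear oxidative phosphorylation genes rose for 21 and fell for 10 of 39 against shCtrl cells, and 1 rose and 30 fell against untransduced EPS cells. Ribosomal protein genes rose for 30 and fell for 9 of 48, and 1 rose and 39 fell against untransduced EPS cells. The 48 ribosomal genes summed to 40796 and 42415 CPM on day 6, 33597 and 38627 CPM in shCtrl cells and between 60096 and 81103 CPM in untransduced EPS cells. The oxidative phosphorylation genes had a median above 0 against shCtrl cells (0.33) but a lower sum, 5648 and 5891 CPM on day 6, against 6536 and 7196 CPM in shCtrl cells. Both lists summed highest in untransduced EPS cells. Rpl37, of the large subunit, had 402 and 415 CPM on day 6, 109.9 and 127 CPM in shCtrl cells and 630.3, 571 and 458 CPM in untransduced EPS cells. Among p53 targets 13 of 19 rose and 3 fell against shCtrl cells, and 4 rose and 10 fell against untransduced EPS cells. Cdkn1a, the cell cycle inhibitor p21, stood at 238 and 251 CPM on day 6, 76.3 and 104 CPM in shCtrl cells and 412, 423 and 338 CPM in untransduced EPS cells. Btg2 and Perp, a tetraspan protein of desmosomes, rose in both comparisons, by 3.90 and 4.35 against shCtrl cells and 1.64 and 2.69 against untransduced EPS cells on the log2 scale. Mitotic genes fell for 16 and rose for 2 of 24, none by 2-fold or more, and against untransduced EPS cells 5 rose and 11 fell. The hypoxia list gave 11 higher and 4 lower of 17 against shCtrl cells, and 7 and 7 against untransduced EPS cells.

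Interferon and antigen presentation genes rose for 20 of 22 and none fell against shCtrl cells, with a median of 3.45; against untransduced EPS cells 18 rose and 4 fell. Isg15, a ubiquitin-like effector, was at 54.5 and 56.7 CPM on day 6 and 0.799, 0.884 and 2.68 CPM in untransduced EPS cells, at least 310.0-fold higher than in shCtrl cells. Psmb8, an immunoproteasome subunit, had 39.4 and 39.2 CPM on day 6, against 0 and 0.0600 CPM in shCtrl cells and 0.184, 0.497 and 0.610 CPM in untransduced EPS cells (1313-fold higher, 95% counting interval 235 to 51902 over shCtrl). B2m, the light chain of MHC class I, stood at 146 and 153 CPM on day 6, against 8.53 and 9.24 CPM in shCtrl cells and 70.0, 71.1 and 104 CPM in untransduced EPS cells (4.07 ± 0.11 and 0.88). These genes were highest on day 6 and lowest in shCtrl cells, with the untransduced libraries between.

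**Figure D4:**
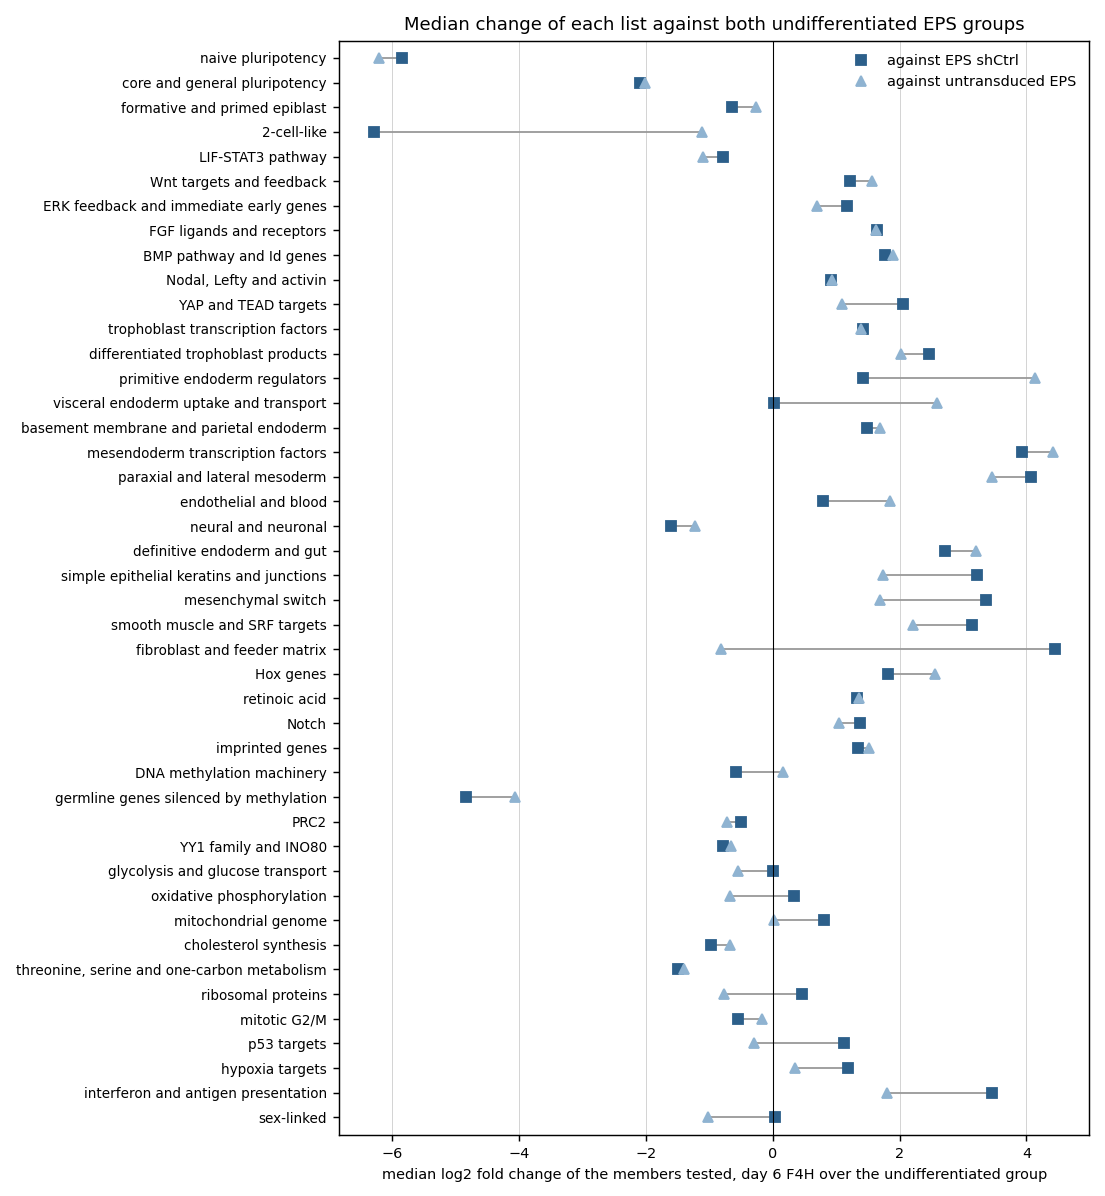
Median log2 fold change of the tested members of each gene list, day 6 F4H over EPS shCtrl (squares) and over untransduced EPS (triangles), joined by a line. The naive pluripotency medians are -5.84 and -6.21 and the mesendoderm medians 3.92 and 4.43; the fibroblast list stands at 4.46 and -0.82.

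ES control cells carried through the same 6 days give a second response to set beside that of EPS control cells. Cell type coincides here with the construct (shCtrl or oeCtrl) and with the medium of the undifferentiated cells, so their effects cannot be told apart. The difference of the 2 responses was tested as an interaction in the fit of 16 libraries, and 8376 of 17207 genes (48.7%) were called, 3917 with a higher (22.8%) and 4459 with a lower change in EPS cells (25.9%); with library sizes only as the scaling the balance turned, with 4699 of 8429 called genes higher. In ES cells alone 73% of the genes tested were called. Of the 29 genes of the panel that could be tested, 17 were called. Pou5f1 fell by 3.09 in EPS cells, against 1.25 in ES cells on the log2 scale. On day 6 it was at 29.7 and 32.8 CPM in EPS cells, against 68.3 and 63.7 CPM in ES cells. Undifferentiated oeCtrl ES cells held 162 and 155 CPM of Pou5f1, and untransduced ES cells 469, 529 and 354 CPM. The size of its fall in ES cells thus depended on the baseline. Otx2 rose in EPS cells (4.84 ± 0.26), against a fall in ES cells (-2.58 ± 0.19), and had 4.59 and 4.97 CPM in day 6 ES cells and 31.3 and 26.2 CPM in undifferentiated oeCtrl ES cells. Dnmt3l fell in EPS cells (-7.32 ± 0.34), against a rise in ES cells (2.86 ± 0.28), where it stood at 17.7 and 20.3 CPM on day 6 and 2.52 and 2.72 CPM in oeCtrl cells. Those 2 genes moved in opposite directions in the 2 lines when each was set against its construct control. Untransduced ES cells held 18.4, 19.3 and 9.37 CPM of Dnmt3l, which overlap day 6 ES cells, so its rise there rests on the oeCtrl libraries. They held 15.2, 13.2 and 12.1 CPM of Otx2, above day 6 ES cells. T reached like levels on day 6, 219.9 and 221 CPM in EPS cells and 223 and 214 CPM in ES cells, and its called difference goes with undifferentiated levels of 2.56 and 10.2 CPM in EPS shCtrl cells and 0.409 and 0 CPM in ES oeCtrl cells. Cdx2 likewise was at 38.4 and 36.8 CPM in day 6 EPS cells and 31.9 and 30.3 CPM in day 6 ES cells, with 0 counts in ES oeCtrl cells. Gata4 had 45.3 and 48.1 CPM in day 6 EPS cells, against 11.0 and 9.58 CPM in day 6 ES cells. Acta2 stood at 101 and 99.3 CPM in day 6 EPS cells, against 838 and 787 CPM in day 6 ES cells. Its difference in response was not called, with 0 counts in EPS shCtrl cells and 0.0681 and 0.0663 CPM in ES oeCtrl cells.

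**Figure D5:**
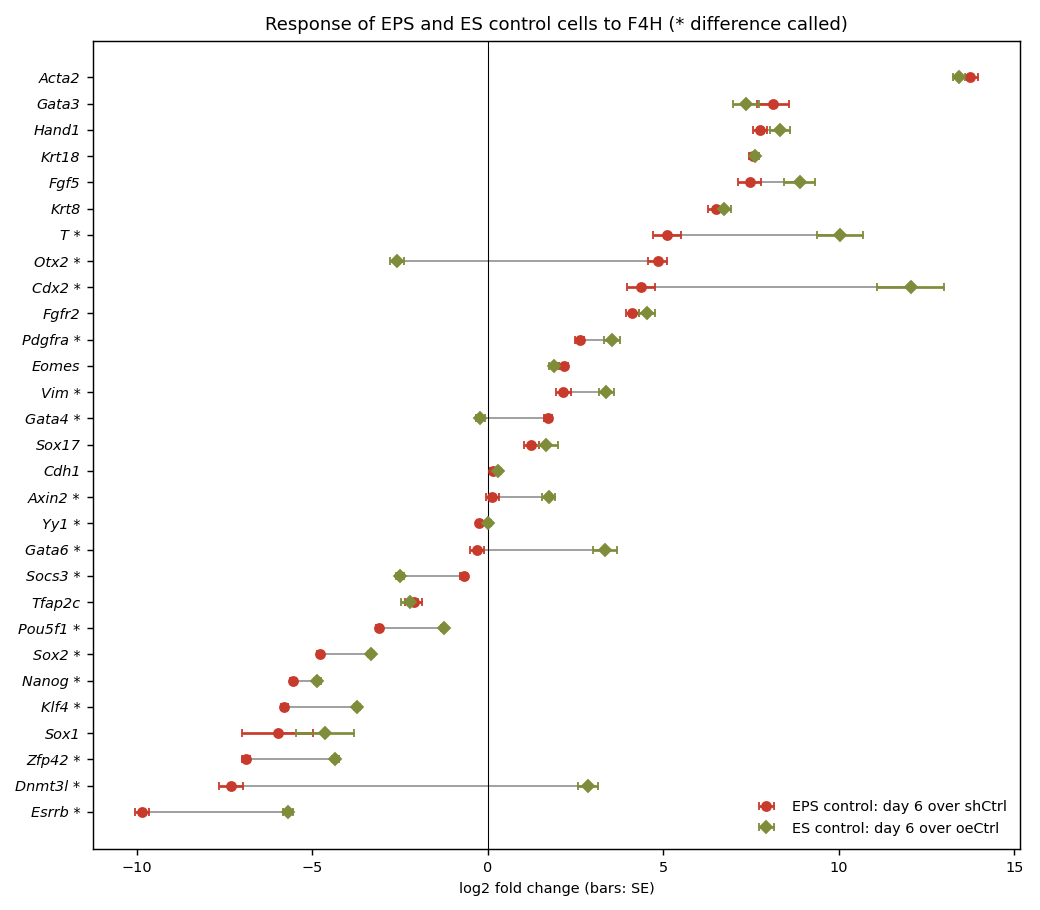
Log2 fold change (± SE) of the 29 tested panel genes after 6 days of F4H, in EPS control cells over shCtrl (circles) and in ES control cells over oeCtrl (diamonds). An asterisk marks the 17 genes whose difference between the lines was called; Otx2 and Dnmt3l lie on opposite sides of 0.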

How the data were processed

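Total RNA was extracted with TRIzol, and the authors deposited 1 table of gene counts per library, raw read counts per gene symbol with 47517 genes and 5 summary lines. CASAVA and Bowtie2 2.3.2 and the build mm10 (GRCm38) are named per the submitters' processing notes; the counting step and its use of strand are not given in the sources used here. The summary lines were dropped; in the 4 libraries reads outside genes were 6.53% to 8.44% of all lines' reads, ambiguous reads 4.06% to 5.32% and reads with several alignments 5.45% to 6.66%.

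The counts were tested with edgeR 4.0.16 (quasi-likelihood, TMM factors, filterByExpr, R 4.3.3) in a fit of 16 libraries in 8 groups that share 1 estimate of spread. Of these 8 groups the shCtrl replicates lay farthest apart, with 2.41% of genes at 5 CPM or more differing at least 2-fold. The shared estimate can therefore understate the error of the shCtrl baseline. A fit of only the libraries of that comparison called 10846 genes, against 12755. The comparison with untransduced EPS cells used all 22 libraries in 10 groups. P-values were adjusted over all genes tested. DESeq2 1.42.0 and other settings served as alternatives. The code was tested on simulated data. The members and lists were chosen with earlier results of these data known. Replicate numbers gave no sign of pairing the samples and were not used as a block in the reported fits.

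Named genes were a panel, the 8 largest rises and falls among called genes with at least 5 CPM on average and no overlap, up to 3 called members of each list in each direction by smallest p, and up to 8 transcription factors with a mean of at least 5 CPM on day 6 and under 1 CPM in shCtrl cells. A further part of the rule, which ranked genes by CPM per kb of exon, was not applied because no exon lengths were at hand, so levels are not compared between genes. Some genes are not reported here. Other genes named in the text were chosen after their values were seen. Promoter windows and gene positions are from RefSeq (GRCm38.p6).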

Additional observations from a re-analysis of the deposited data

Results flagged for a closer look

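The responses of EPS and ES control cells to 6 days of F4H differed by the interaction test of edgeR for 8376 genes, and 17 panel genes were among them. Effects of cell type, construct and undifferentiated medium cannot be told apart in this test. The values that follow are the log2 fold change of EPS control cells (day 6 over shCtrl) minus that of ES control cells (day 6 over oeCtrl), with 2 libraries in each of the 4 groups. A negative value means a larger fall or a smaller rise in EPS cells, or a fall in EPS cells where ES cells rose.

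Pluripotency factors had the more negative response in EPS cells, with differences of -0.70 ± 0.12 for Nanog, -1.84 ± 0.11 for Pou5f1, -1.46 ± 0.12 for Sox2, -2.07 ± 0.12 for Klf4, -2.54 ± 0.15 for Zfp42 and -4.15 ± 0.26 for Esrrb. Esrrb was at 0.514 and 1.54 CPM in day 6 EPS cells, against 19.4 and 21.9 CPM in day 6 ES cells, with 1052 and 1084 CPM in undifferentiated oeCtrl ES cells. Otx2 differed by 7.42 ± 0.33 and Dnmt3l by -10.18 ± 0.45, each with opposite directions in EPS and ES cells against the construct controls. For Dnmt3l the direction in ES cells rests on the oeCtrl libraries, and for Pou5f1 the size of the fall in ES cells depended on the baseline. The difference of Vim was -1.23 ± 0.29, and -0.73 without EPS shCtrl replicate 2. That of Axin2 was -1.60 ± 0.26 and that of Socs3 1.82 ± 0.15.

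Lineage factors differed as well. Gata4 differed by 1.92 ± 0.18, Gata6 by -3.63 ± 0.41 and Pdgfra by -0.93 ± 0.31. Gata6 was at 14.6 and 16.4 CPM in day 6 EPS cells and 24.3 and 13.6 CPM in shCtrl cells, against 6.21 and 6.78 CPM in day 6 ES cells and 0.545 and 0.729 CPM in oeCtrl ES cells. Untransduced EPS cells held 0.737, 0.939 and 2.38 CPM of Gata6, and untransduced ES cells 1.47, 1.94 and 2.75 CPM. For Pdgfra they held 2.70, 3.26 and 7.99 CPM and 5.67, 5.51 and 8.45 CPM, against day 6 means of 60.5 and 7.87 CPM. From these levels both genes rose more in EPS cells, so the sign of their difference depends on the baseline. An interaction with untransduced cells was not tested. T differed by -4.94 ± 1.15 and Cdx2 by -7.67 ± 2.05. The fitted value of Cdx2 depends on the prior count, since ES oeCtrl cells had 0 counts, and that of T was -9.77 without ES oeCtrl replicate 1. Yy1 differed by -0.25 ± 0.10 (adjusted p = 0.0404), a call that 11 of the alternative settings lost. The call of Pdgfra was lost in 2 of them.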

How the results depend on the processing

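In both comparisons against undifferentiated EPS cells and in the comparison of EPS with ES responses, the number of called genes stayed within 1.5 times of that reported under every alternative run. The comparison with shCtrl cells was run with other scaling factors, library sizes only, no filter, a stricter filter on low counts and DESeq2. Further runs used other sets of libraries in the fit, the replicate block, no X-linked or Y-linked genes, other baselines and each replicate left out. The comparison of responses had the same runs without other baselines, so its dependence on the baseline was not tested. That with untransduced EPS cells had only other scaling factors, no filter, DESeq2, the replicate block and each replicate left out. Genes called against shCtrl cells numbered between 10846 and 13144, against 12755 reported. With 1 replicate left out at a time, the lone sample was assumed to vary like the other groups. DESeq2 leaves some adjusted p-values undefined, and those are not counted as lost calls. Replicate numbers gave no sign of pairing: the deviations of same-numbered day 6 and shCtrl libraries correlated at r = 0.00417 over 17207 genes. This value cannot show how the samples were collected. With the replicate block 12725 genes were called, of which 12667 were called without it (99.3%). Library sizes alone moved the median log2 fold change of all genes to 0.15, against 0.01, and the share of called genes that rose to 56.3%, against 50.6%. In the comparison of EPS with ES responses they moved that median to 0.093, against -0.049, and the share to 55.7%, against 46.8%. Against untransduced EPS cells, where library sizes alone were not run, the share was 49.8% and lay between 49.7% and 51.6% under the alternatives. With untransduced EPS cells as the baseline, 9888 of the 12755 genes (77.5%) were called as well.

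With that baseline the log2 fold change turned to -0.64 for Axin2, -0.45 for Cdh1, -0.68 for Cdkn1a, 0.88 for Cdx1, -0.70 for Cldn4, -1.95 for Ctgf, 1.36 for Cubn, 1.68 for Dnmt3a, 0.23 for Dnmt3b, 3.52 for Gata6, -0.31 for Lin28a, -1.21 for Nodal, -0.44 for Rpl37, 0.93 for Smad7 and 0.24 for Tcf15. With both baselines weighted equally it turned to -0.25 for Axin2, -0.15 for Cdh1, -0.27 for Ctgf, 0.36 for Dnmt3a, 1.62 for Gata6 and -0.54 for Nodal. Left out in turn, the shCtrl replicates gave between -0.10 and 0.54 for Axin2, -0.74 and 0.17 for Dnmt3b, -0.61 and 0.23 for Gata6, -0.084 and 3.76 for Lef1, and -0.13 and 0.55 for Nodal. The cause was not tested. Yy1 was not called with library sizes only. Among genes named in the text, 26 values turned in direction, 9 calls were lost and 11 were gained over all settings of the comparison with shCtrl cells. Of the counts of list members called, 1242 stayed within 1.5 times and 78 did not. Depth limits genes under the floor of 3 counts, for which no fold was fitted reliably.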

Other observations

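Genes of the 2-cell-like state, a rare state of stem cell cultures, fell for the most part on day 6 against shCtrl cells. Of the 7 members tested 6 fell and 1, Sp110, rose (1.87), and 5 had 0 counts in both day 6 libraries. With untransduced EPS cells as the baseline 1 fell and 1 rose, and those 5 were not called. Zscan4d, of a telomere-associated gene cluster, had 0 counts on day 6, against 2.09 and 2.22 CPM in shCtrl cells and 0.0614, 0 and 0 CPM in untransduced EPS cells; its near-identical paralogs make its own level uncertain. Zfp809, a repressor of proviral DNA, was at 7.34 and 6.30 CPM on day 6, against 24.0 and 22.6 CPM in shCtrl cells and 12.7, 12.4 and 19.2 CPM in untransduced EPS cells (-1.78 ± 0.14 and -1.11).

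Products of later trophoblast were divided. Of 11 tested members 8 rose and 3 fell (7 and 3 against untransduced EPS cells), and the prolactin family, Tpbpa and Ctsq had 0 counts in all 4 libraries. Cited2, a transcriptional coregulator of placenta and heart, was at 260.2 and 267 CPM on day 6, against 63.4 and 32.1 CPM in shCtrl cells (2.46 ± 0.25). Wnt7b, a ligand of the chorion, was at 22.2 and 21.1 CPM on day 6, against 0.119 and 0.300 CPM in shCtrl cells and 1.29, 0.718 and 0.488 CPM in untransduced EPS cells (6.63 ± 0.27 and 4.70). The 3 members that fell were Rhox5, Rhox6 and Rhox9, homeobox genes of an X-linked cluster, of which Rhox5 was at 1.64 and 1.45 CPM on day 6, against 29.2 and 14.5 CPM in shCtrl cells (-3.82 ± 0.35).

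Transcripts of the mitochondrial genome moved in both directions. Of 13 genes 7 rose and 4 fell against shCtrl cells, and 6 rose and 6 fell against untransduced EPS cells. Cytochrome b (mt-Cytb) was at 1881 and 1893 CPM on day 6, against 3618 and 5127 CPM in shCtrl cells (-1.22 ± 0.13), and mt-Co2 was at 10.3 and 12.2 CPM on day 6, against 0.596 and 0.840 CPM in shCtrl cells (3.95 ± 0.25). Nuclear copies of mitochondrial DNA can share reads with several of these genes, so their levels are uncertain. Xist, the RNA of the inactive X chromosome, was at 0.467 and 0.227 CPM on day 6, against 24.5 and 4.68 CPM in shCtrl cells and 18.3, 19.1 and 70.9 CPM in untransduced EPS cells.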
